A study of Mus musculus with 14 samples.

Results

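The miR-181 family is a group of 4 mature microRNAs, listed for mouse as mmu-miR-181a, mmu-miR-181b, mmu-miR-181c and mmu-miR-181d and written below without the species prefix. Its members were taken here as the rows whose name starts with one of these names, without the star names, which left 4 of the 1046 names in the table. The series profiled small RNA in 14 tissues of mice of the inbred strain C57BL/6J. They were, by alphabet, brain, cerebellum, colon, heart, kidney, liver, lung, oesophagus, ovary, pancreas, small intestine, spleen, stomach and uterus. All mice shared the strain, and no treatment, age or sex is named in the labels. Cerebellum is a part of the brain, and the tissue labels do not say whether the library labelled brain left it out. Each tissue had 1 library, made from RNA pooled over several mice. Without replicates no tissues were tested against each other, and every interval below is a 95% interval that covers counting error only.

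MicroRNAs are short RNAs that guide Argonaute proteins to messenger RNAs, mostly through the seed, which is the stretch from base 2 to base 8. A hairpin precursor can give a mature strand from each arm, and in the naming of this table a star marks the strand taken as the minor one. The miR-181 family is conserved among vertebrates and is known from lymphocytes, where miR-181a tunes the sensitivity of the T cell receptor in the thymus, and from neurons. Thymus was not among the 14 tissues.

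The mature sequences are shown because the 4 members share their seed and differ by few bases beyond it, which bears on how their reads can be told apart. They are RefSeq entries on GRCm38.p6, matched by name to the 5p arm for 4 of the 4 members, written 5′ to 3′ with the seed in capitals.
miR-181a: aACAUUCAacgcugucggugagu
miR-181b: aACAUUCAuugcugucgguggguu
miR-181c: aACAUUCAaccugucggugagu
miR-181d: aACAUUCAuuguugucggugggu

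With positions counted from 1 at the 5′ end, miR-181b differs from miR-181a by A9U, C10U and A21G and is 24 bases long against 23. miR-181d differs from miR-181b by C12U and lacks its last base. miR-181c is miR-181a without the G at position 11. All 4 members had the same seed, and 0 other names among the 1679 RefSeq mature names read had it. How the authors assigned reads that match several names is not given in the sources used here, so miR-181b and miR-181d, and miR-181a and miR-181c, may share reads.

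The family is encoded by 6 hairpin genes in 3 pairs. Their positions follow GENCODE M21 on GRCm38. The build used by the authors is not given in the sources used here. Mir181a-1 (chr1:137966455-137966541, plus strand) and Mir181b-1 (chr1:137966639-137966718, plus strand) lie 97 bases apart, within exonic sequence of the long non-coding RNA gene A430106G13Rik. Mir181a-2 (chr2:38852735-38852810, plus strand) and Mir181b-2 (chr2:38853830-38853918, plus strand) lie 1019 bases apart, inside an intron of Nr6a1, which runs on the opposite strand. Mir181d (chr8:84178716-84178787, minus strand) and Mir181c (chr8:84178873-84178961, minus strand) lie 85 bases apart, in intronic sequence of Nanos3 on the same strand. The first and second pair give identical miR-181a and identical miR-181b, so the star strands are what tells these 2 loci apart.

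Counts were divided by the total of their library and scaled to RPM, reads per 1000000 reads of the library. Totals ran from 622132 counts in pancreas to 9341000 in small intestine, and 3 reads, taken as the limit for a count of 0, correspond to 4.82 RPM in the first and 0.321 RPM in the second. miR-143, a microRNA of smooth muscle and other mesenchymal cells, held 98.7% of the reads labelled colon and 87.1% of those labelled ovary, against 4.01% to 70.2% in the other libraries. All other names together had 86545 and 292350 reads there, so levels are also given over totals without miR-143. The intestinal microRNAs miR-192, miR-194 and miR-215 summed to 78772 RPM in the library labelled uterus and 25.2 RPM in that labelled colon. With totals without miR-143 these sums were 182504 and 1941. These libraries are therefore named by their labels, and calls are given with and without the second.

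All 4 members were most abundant in cerebellum and second in brain. Summed over the 4 names, the family reached 4517 RPM (4394–4642) in cerebellum and 2526 RPM (2484–2569) in brain, 1.79-fold (1.73–1.85) apart. Kidney followed at 1398 RPM, oesophagus at 1166, spleen at 1082 and lung at 974. Stomach held 471 RPM, small intestine 542, the library labelled uterus 467 and heart 318. A step of 5.13-fold (4.61–5.73) separated heart from liver, which held 61.9 RPM, and below it stood ovary at 56.5, pancreas at 35.4 and the library labelled colon at 31.0. Within this order the intervals of neighbouring folds included 1 for stomach against uterus, liver against ovary and pancreas against colon.

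Cerebellum as the highest library was common among the names tested, since 25.6% of the 418 names that reached 10 RPM in some library peaked there, and 37.1% had brain and cerebellum as their highest pair. Of the same names, 40.4% were higher in cerebellum than in brain by any amount, as were 4 of the 4 members. The place of the family in the nervous system is read against that background. With totals without miR-143, cerebellum (4731 RPM) and brain (2697 RPM) still came first, but lung (2506), the library labelled colon (2392) and spleen (2244) came close behind. Cerebellum was first and brain second for the sum under all 4 scalings run, while the order of the other 12 changed with the scaling. The second place of brain was not separated from the library labelled colon, with its 207 family reads, under 2 of them. Brain was 1.13-fold (0.983–1.30) above it with totals without miR-143 and 1.003-fold (0.875–1.16) with totals without the 5 most abundant names. Among single members the exception was miR-181a. For it brain fell to rank 6 with totals without miR-143 and to rank 4 with totals without the 5 most abundant names. The other 3 members kept cerebellum and brain as their highest pair with totals without miR-143, as did 26.3% of all names.

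**Figure D1:**
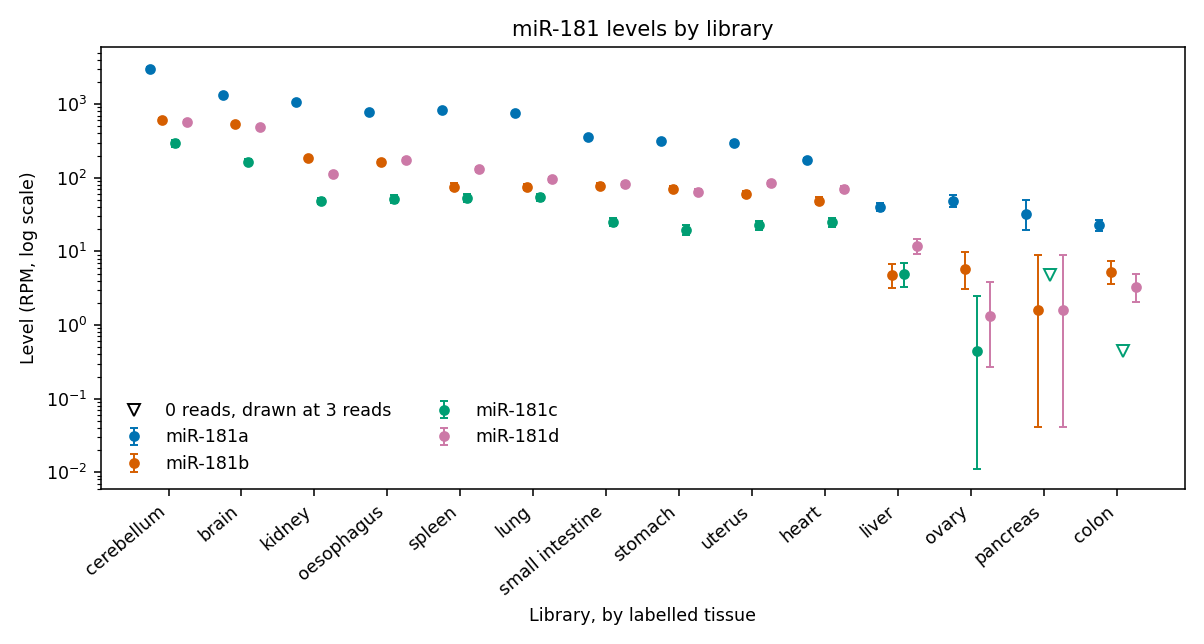
Level of each member in RPM (log axis) in the 14 libraries, ordered by the summed level. Points are single libraries with 95% exact Poisson intervals, and open triangles mark 0 reads, drawn at the level of 3 reads. miR-181a leads in every library, and a step separates heart from liver, ovary, pancreas and the library labelled colon.

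mmu-miR-181a, the member studied most in T cells, was the most abundant of the 4 in every library. It stood at 3044 RPM in cerebellum, 1341 in brain, 1055 in kidney, 824 in spleen, 773 in oesophagus and 749 in lung. It then fell to 357 RPM in small intestine, 316 in stomach, 299 in the library labelled uterus and 173 in heart. The lowest levels were 49.0 RPM in ovary, 40.7 in liver, 32.1 in pancreas and 22.5 in the library labelled colon. Cerebellum exceeded brain by 2.27-fold (2.18–2.36), the widest gap of the 4 members. Oesophagus and lung differed by 1.03-fold (0.990–1.08), and neighbours among the 4 lowest libraries also had intervals that included 1. miR-181a was at 10 RPM or more in all 14 libraries, as were 10.3% of the 418 names. At least 1 read in all 14 libraries was counted for miR-181a, miR-181b and miR-181d, and for 38.5% of all names.

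mmu-miR-181b, its partner at both loci that encode miR-181a, had 608 RPM in cerebellum and 537 in brain, 1.13-fold (1.04–1.23) apart. Kidney held 183 RPM and oesophagus 165. Small intestine (78.2 RPM), lung (76.0), spleen (75.6) and stomach (70.9) formed a level stretch in which no neighbours were separated by their intervals. The library labelled uterus held 60.7 RPM and heart 48.7. Below these stood ovary (5.73), the library labelled colon (5.25), liver (4.73) and pancreas, where 1 read gave 1.61 RPM (0.0407–8.96).

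mmu-miR-181c was the scarcest member in the 10 libraries where all 4 members reached 10 RPM. It had 293 RPM in cerebellum and 166 in brain, 1.77-fold (1.55–2.01) apart. Lung (54.1 RPM), spleen (52.5), oesophagus (51.6) and kidney (48.7) followed, then small intestine (25.4), heart (24.8), the library labelled uterus (22.5) and stomach (19.7). Within each of these 2 groups no neighbours in the order were separated by their intervals, and the ends of each group were not compared. Liver held 4.89 RPM from 31 reads, and ovary 0.441 from 1 read. No read was counted in the libraries labelled colon and pancreas, for which the 3-read limit is 0.450 and 4.82 RPM and the exact interval reaches 0.553 and 5.93 RPM.

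mmu-miR-181d, which shares its locus with miR-181c, had 572 RPM in cerebellum and 482 in brain, 1.19-fold (1.09–1.29) apart. Oesophagus followed with 177 RPM, then spleen with 129.6, kidney with 111 and lung with 95.3. The library labelled uterus (84.2 RPM) and small intestine (81.5) differed by a fold whose interval included 1, and so did heart (70.9) and stomach (64.6). Liver held 11.7 RPM, the library labelled colon 3.30, pancreas 1.61 and ovary 1.32, the last 2 from 1 and 3 reads. miR-181d had more reads than miR-181c in 14 of 14 libraries.

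No member was concentrated in a single tissue. Tissue enrichment was called from 100 RPM upward in the top library, if that level was 5-fold or more above the next one after adding 1 RPM to each. This rule called 0 of the 4 members and 10.5% of the 418 names. Names under 100 RPM in every library could not be called, yet they count among the 418, so this share is low as a background. With only 4 members, a count of 0 is not set apart from that share. Tau, an index of specificity between 0 (even level) and 1 (a single tissue), was 0.320 for miR-181a, 0.419 for miR-181b, 0.515 for miR-181c and 0.411 for miR-181d. Their median of 0.415 stood beside 0.640 over the 418 names, and 0 of the 4 members reached 0.85, a value that 21.3% of all names reached.

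A second rule asked for a 4-fold distance from the median of the other 13 libraries on the log2(RPM + 1) scale, with the higher side at 10 RPM or more. Against that median, 4 of 4 members were at least 4-fold higher in cerebellum, as were 43.3% of the 418 names, and 4 of 4 in brain, as were 52.9%. These shares show how common such a position was for the brain libraries. With totals without miR-143, 1 of 4 members (miR-181c, with a background of 34.9%) remained at least 4-fold higher in cerebellum and 0 of 4 in brain (42.1%). Without the library labelled colon, the counts were 4 of 4 in cerebellum (41.1%) and 3 of 4 in brain (51%), where miR-181a no longer passed. With median-of-ratios size factors, which set libraries to a common median ratio, 4 of 4 did in cerebellum (28.9%) and 0 of 4 in brain (31.3%).

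In liver and pancreas the summed level lay below the median of the other libraries under all 4 scalings. In liver 4 of 4 members were at least 4-fold below the median of the other libraries, as were 6.46% of the 418 names. Names whose median was under the minimum level of this rule could not be called below, yet they count among the 418. The shares of names given here and in the next paragraph are therefore low as a background for the members. The share among names that could be called was not computed. In liver the log2 differences were −3.10 for miR-181a, −3.74 for miR-181b, −2.16 for miR-181c and −2.75 for miR-181d. With totals without miR-143 the count was again 4 of 4 (20.1% of names), and with median-of-ratios factors 3 of 4 (5.26%). miR-122, the hepatocyte microRNA, reached 437407 RPM there. With totals that leave out the 5 most abundant names of each library, liver had the lowest summed level of the 14. The liver library held 6344776 counts, of which 393 were family reads. In whole tissue, fewer cells of a type that express a microRNA and less of it per cell cannot be told apart.

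In pancreas, 4 of 4 members were also at least 4-fold below (22.2% of names), 4 of 4 without miR-143 in the total (39.5%) and 3 of 4 with median-of-ratios factors (6.22%). That library gave 22 family reads in all, so its member values are imprecise. Ovary (31.8% of names) and the library labelled colon (36.6%) had 4 of 4 members below with totals. Without miR-143 in the total these counts were 3 of 4 (25.4%) and 1 of 4 (6.7%), the last being miR-181c. With median-of-ratios factors they were 2 of 4 (5.98%) and 1 of 4 (5.26%), the last again miR-181c. For miR-181a, the log2 difference of the library labelled colon went from −3.93 by totals to 0.79 with totals without miR-143 and 0.60 with median-of-ratios factors. With that library left out of the medians, 4 of 4 members were at least 4-fold below in liver (8.85% of names), in pancreas (24.6%) and in ovary (34%).

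**Figure D2:**
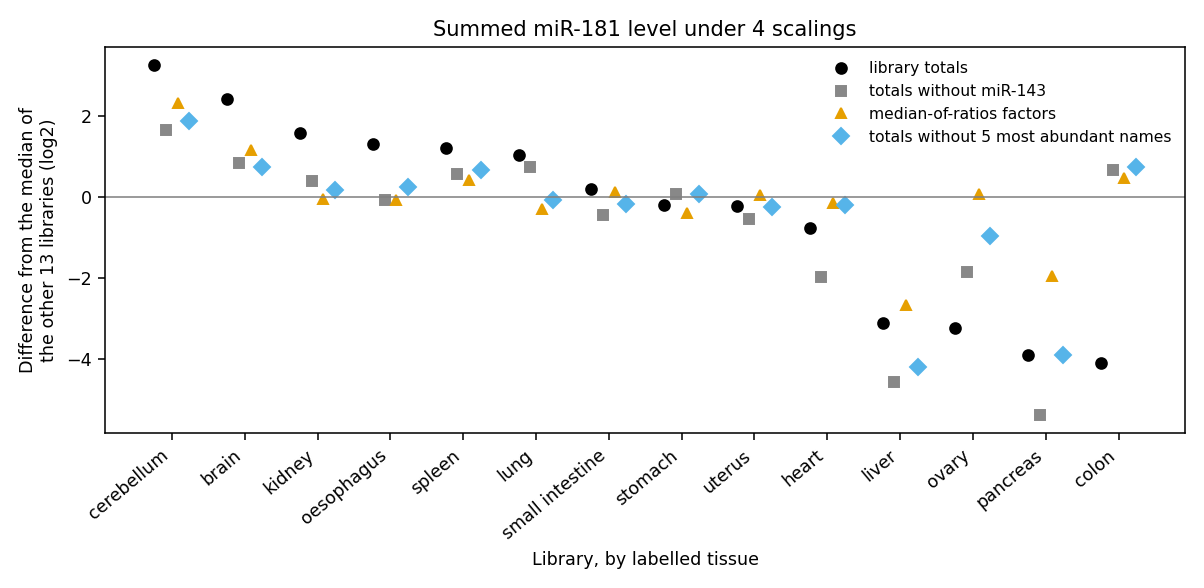
Summed level of the 4 members in each library as the log2 difference from the median of the other 13, under 4 scalings. Points are single libraries. Cerebellum lies highest under all 4, and heart, liver and pancreas lie below 0 under all 4. The library labelled colon moves from −4.08 with totals to 0.66 with totals without miR-143.

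Ratios between families within a library do not depend on its total. The miR-30 family (miR-30a to miR-30e) and the miR-29 family (miR-29a, miR-29b, miR-29c) were used as 2 other broadly detected families with several members. Per 100 reads of the miR-29 family, which targets collagen and other matrix messages, there were 429 miR-181 reads (403–458) in cerebellum and 28.3 (27.8–28.9) in brain. The library labelled uterus had 103, spleen 82.4, lung 76.0, small intestine 74.4 and heart 63.9. Oesophagus had 45.7, the library labelled colon 40.7, kidney 39.0, stomach 38.9 and ovary 38.2. Liver, with 8.91 (8.02–9.88), and pancreas, with 2.11 (1.32–3.21), were the lowest by this measure too. Brain stood next above them. Its miR-29 sum was 8921 RPM, the highest of any library, against 1052 RPM in cerebellum.

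Per 100 reads of the miR-30 family, known from kidney and many other epithelia, the highest ratios were 36.8 in oesophagus, 20.3 in spleen and 20.2 in the library labelled colon. Cerebellum had 14.9, brain 11.1, small intestine 10.1, uterus by its label 9.20, stomach 7.52 and ovary 5.10. Lung had 2.49, kidney 1.91 and heart 1.63, and pancreas (0.864) and liver (0.277) were again lowest. The ovary and the library labelled colon thus lay inside the range of the other tissues in both ratios. The median tau was 0.278 for the 5 miR-30 names and 0.445 for the 3 miR-29 names, on either side of the 0.415 of the miR-181 family.

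The make-up of the family differed between tissues, and shares within a library are free of the scaling. miR-181a held more than 50% of the family reads in 14 of 14 libraries. Its share was lowest in brain, at 53.1% (52.2–53.9%), and in heart, at 54.5% (52.4–56.6%). It was highest among the 12 libraries with 200 or more family reads in lung, at 76.9% (75.8–77.9%), in spleen, at 76.2% (75.0–77.3%), and in kidney, at 75.5% (74.7–76.2%). Ovary, with 128 family reads, had 86.7% (79.6–92.1%), and pancreas, with 22, had 90.9% (70.8–98.9%). The other libraries lay between 64.1% and 72.5%.

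Brain and cerebellum, the 2 libraries richest in the family, differed in make-up. miR-181b made up 28.6% (27.7–29.5%) of miR-181a and miR-181b reads in brain and 16.7% (15.5–17.8%) in cerebellum. Heart came second after brain, with 21.9% (19.9–24.1%). Lung had 9.21% (8.41–10.1%) and spleen 8.41% (7.60–9.27%), the lowest of the libraries with 200 or more family reads. Stomach, small intestine, oesophagus and the libraries named uterus and colon lay between 16.9% and 18.9%, kidney at 14.8%, and liver at 10.4% (7.14–14.5%). Ovary had 10.5% and pancreas 4.76% from 21 reads. The intervals of brain, heart and kidney did not overlap with those of lung and spleen.

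The pair from the locus in Nanos3, miR-181c and miR-181d, held 30.1% (28.2–32.1%) of the family reads in heart, 26.7% (22.4–31.4%) in liver and 25.6% (24.9–26.4%) in brain. Its share was lowest in ovary, at 3.12% (0.858–7.81%), in pancreas, at 4.55% from 1 read, in the library labelled colon, at 10.6%, and in kidney, at 11.4% (10.9–12.0%). Within the pair, miR-181c held 36.2% (33.0–39.5%) in lung, 33.8% (30.9–36.9%) in cerebellum, 30.5% in kidney, 29.5% in liver and 28.8% in spleen. It held 25.9% in heart, 25.6% in brain, 23.7% in small intestine, 23.3% in stomach, 22.6% in oesophagus and 21.1% (18.5–23.9%) in the library labelled uterus. The library labelled colon had 0 of 22 reads, with an exact interval up to 15.4%, which lies below the intervals of those 11 libraries. Of the 207 family reads in that library, 0 were miR-181c, with an exact interval up to 1.77% and a 3-read limit of 1.45%, against 3.49% to 7.89% in the other libraries with 200 or more family reads.

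**Figure D3:**
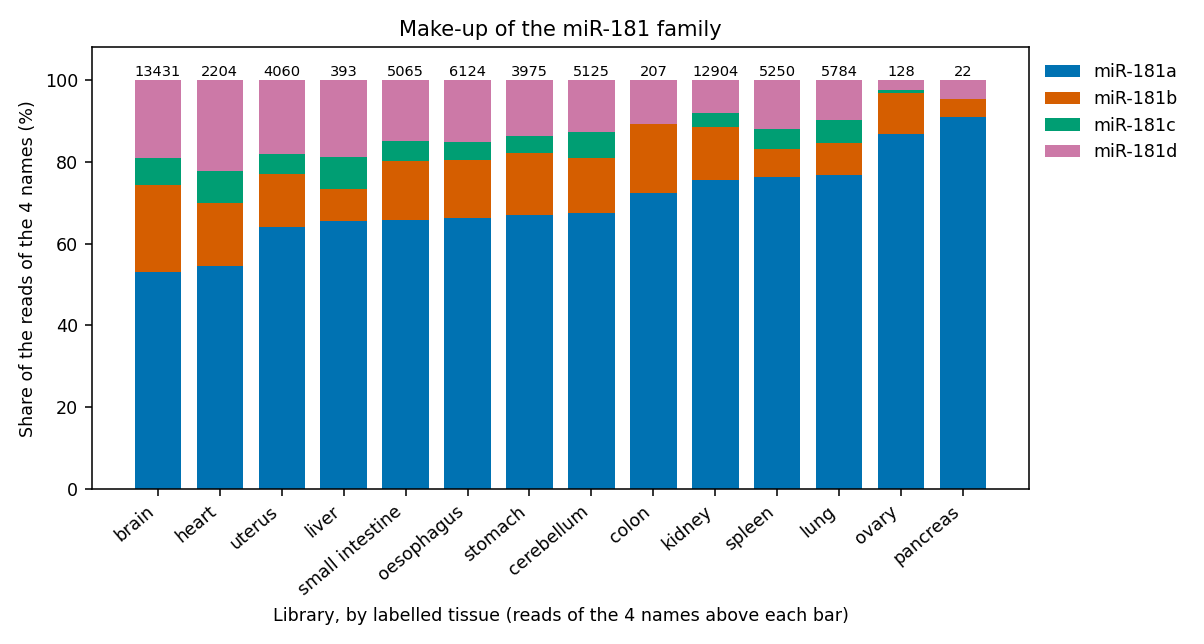
Share of each member in the reads of the 4 names, by library, ordered by the miR-181a share, with the number of family reads above each bar. miR-181a runs from 53.1% in brain to 90.9% in pancreas, where 22 reads were counted, and the bars labelled colon and pancreas hold no miR-181c.

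The star strands carry the locus of origin that miR-181a itself does not. The 2 star strands of miR-181a are shown with the bases that differ between them in capitals, as the 3p arms in RefSeq on GRCm38.p6, 5′ to 3′. The star names were matched to the 3p arms as the other arm of the same hairpin, and the table gives no sequences.
miR-181a-1*: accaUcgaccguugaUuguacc
miR-181a-2*: accaCcgaccguugaCuguacc

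The substitutions from the first to the second are U5C and U16C, counted from 1 at the 5′ end. miR-181c* differs from miR-181a-1* by U16G and U19G, and reads that allow mismatches could be shared among these 3 names. miR-181a-1*, from the chromosome 1 locus, had 806 reads over all libraries, and miR-181a-2*, from the chromosome 2 locus, had 379. The first was highest in cerebellum, at 90.8 RPM, followed by brain at 63.9, and stood at 3.03 RPM in heart. The second was highest in heart, at 16.4 RPM, followed by oesophagus at 11.8, and stood at 3.01 RPM in brain.

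As a share of the miR-181a star reads, miR-181a-1* made up 95.5% (92.8–97.4%) in brain from 340 of 356 reads and 92.8% (86.3–96.8%) in cerebellum from 103 of 111. In heart it made up 15.6% (9.89–22.8%), from 21 of 135 reads, and in oesophagus 35.4% (25.9–45.8%), from 34 of 96. Heart and oesophagus had the highest sums over the striated muscle microRNAs miR-1, miR-133a, miR-133b, miR-206, miR-208a-3p and miR-499. These were 320179 and 322362 RPM, against at most 9228 RPM in any other library. Both sums rested mainly on miR-1, with 318375 RPM in heart and 279486 in oesophagus. miR-206 held 42616 RPM in oesophagus but 26.0 in heart, below cerebellum (7143) and brain (459). miR-208a-3p held 30.4 RPM in heart and 0.190 in oesophagus, and miR-499, highest in heart, had 0 reads in oesophagus. miR-133a and miR-133b were highest in heart, followed by oesophagus. Whether muscle cells gave the star reads of miR-181a in heart and oesophagus was not tested. Small intestine had 75.0% (56.6–88.5%), stomach 72.2% (58.4–83.5%), lung 64.1% (54.0–73.3%), the library labelled uterus 62.5% (47.4–76.0%), kidney 62.2% (53.8–70.0%) and spleen 59.8% (49.0–69.9%).

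Of the 12 libraries with such reads, the interval lay above 50% in 6, below 50% in 2 and included 50% in 4. The 4 were spleen, the library labelled uterus, liver with 9 reads and the library labelled colon with 1 read. Ovary and pancreas had none. Brain and heart both had low shares of miR-181a in the family and high shares of miR-181b among miR-181a and miR-181b reads. Of all family reads, miR-181b held 21.3% in brain but 15.3% (13.9–16.9%) in heart. It held 15.0% in stomach and 16.9% in the library labelled colon. The star reads of miR-181a in brain and heart came mainly from different names. The star shares describe star reads, and the output of each locus was not measured.

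**Figure D4:**
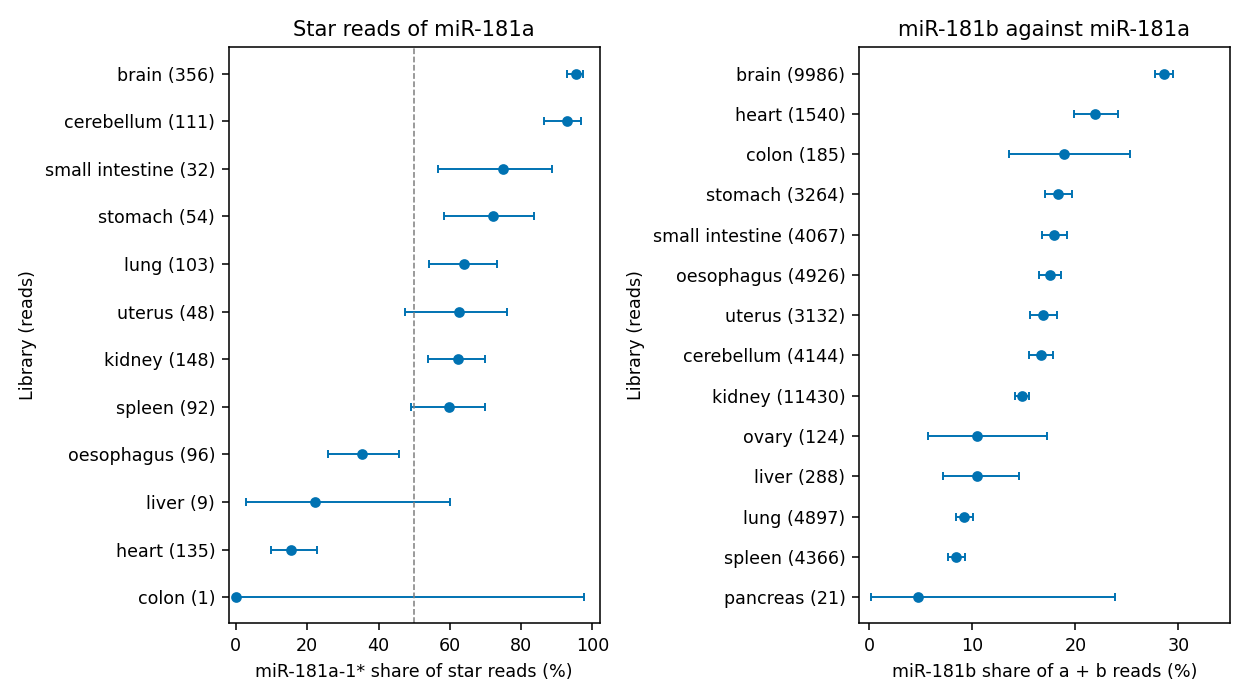
Left, share of miR-181a-1* among the star reads of miR-181a, with a dashed line at 50%. Right, share of miR-181b among miR-181a and miR-181b reads. Points are single libraries with exact binomial 95% intervals and the reads behind them in brackets. Brain is at the top of both panels, and heart is second in the right panel and at 15.6% in the left.

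Markers of several cell types stood beside these levels. The 9 neural microRNAs listed, among them miR-9 and miR-124, summed to 91156 RPM in brain and 61236 RPM in cerebellum, and to at most 549.9 RPM elsewhere. The cerebellum sum rested mainly on miR-124 (20760 RPM), miR-129-5p (15018), miR-9 (14705) and miR-138 (9166). miR-137 and miR-153 held 13.2 and 12.3 RPM there, against 1407 and 380 in brain. For miR-137 this was below the library labelled uterus (29.4), small intestine (21.4) and liver (15.0). Across the 14 libraries the 9-name sum had Spearman's rho of 0.868 with the miR-181 sum, and 0.648 with totals without miR-143. The 6 white blood cell microRNAs summed to 20967 RPM in spleen, 5194 in lung and 477 in cerebellum. Of these sums, miR-146a alone held 7090 RPM in spleen, 3866 in lung and 426 in cerebellum. From spleen to lung, miR-142-3p went from 10642 to 612 RPM and miR-142-5p from 2161 to 627. The lymphocyte microRNAs miR-150 and miR-155 went from 807 to 60.0 and from 242 to 15.3, and miR-223 from 24.7 to 13.8. The rho of the 6-name sum with the miR-181 sum was 0.626, and 0.477 with totals without miR-143. The spleen library was 4.04-fold above lung in the 6-name sum, while the miR-181 sum was 1.11-fold (1.07–1.15) higher. That small difference turned to 0.895-fold (0.862–0.930) without miR-143 in the total, and was 1.59-fold with median-of-ratios factors. For endothelial miR-126-3p and miR-126-5p rho was 0.547, and 0.235 with totals without miR-143. For the 5 epithelial microRNAs of the miR-200 family it was 0.275, and −0.0813 with those totals. With totals, rho was 0.578 for the red blood cell list and also for hepatocyte miR-122. It was 0.415 for striated muscle, 0.310 for the intestinal list, 0.218 for pancreatic acinar and −0.310 for smooth muscle. With library totals, only the neural list lay above 0.635, the median rho of 410 other names with the miR-181 sum. That median is over single names, while the lists are sums. With totals without miR-143 no such median is given, and the single name of rank 96 had rho of 0.647, close to the 0.648 of the neural list. Libraries share their totals and their composition, so these values are descriptions, and the part of any cell type in the miR-181 levels was not tested.

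The members followed each other across tissues. Spearman's rho over the 14 libraries ran from 0.895 between miR-181b and miR-181c to 0.956 between miR-181a and miR-181b, and from 0.642 to 0.855 with totals without miR-143. Among 410 other names, those most like the summed level were miR-500 (rho 0.969), miR-186 (0.965), miR-532-5p (0.965), miR-501-3p (0.956) and miR-324-3p (0.952). The 3 most like miR-181a were miR-532-5p (0.960), miR-500 (0.956) and miR-301a (0.951). For miR-181b they were miR-324-5p (0.933), miR-330* (0.921) and miR-99b* (0.921). For miR-181c they were miR-324-5p (0.955), miR-497 (0.946) and miR-674 (0.946), and for miR-181d miR-532-5p (0.956), miR-99b* (0.943) and miR-324-5p (0.942). High values were common, since the median rho over the 410 names was 0.635 and 80 names reached 0.8. With median-of-ratios factors 1 name reached 0.8, and with totals without miR-143 there were 29, and the ranking of like names changed with the scaling.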

How the data were processed

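Small RNA of 14 mouse tissues was sequenced, with 1 library per tissue. Per the labels' protocols, Trizol was used for extraction and Illumina library preparation followed pooling. The number of mice is 5 where the labels describe dissection and 10 where they describe pooling. The authors deposited unscaled read counts, whole numbers for each mature name. The sources used here do not give the aligner, the trimming, the miRNA reference or the build. Each column was matched to a tissue by its name.

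RPM were computed from library totals with Python 3.11.15, pandas 2.3.3 and scipy 1.17.1. Levels have exact Poisson intervals, shares exact Clopper-Pearson intervals and folds exact conditional binomial intervals. Reads carry no molecular identifiers here. With 1 library per tissue, rules of size took the place of tests. The enrichment rule and the fold intervals were checked on simulated counts, and tau on an even and a single-tissue profile. The simulated counts held counting error only, with names raised in a single library for the enrichment rule. The simulated folds had moderate counts at equal depth, so folds from few reads or unequal depth were not covered. The rule of a 4-fold distance from the median was not checked in this way. Log2 differences used 1 RPM as pseudocount. Names compared had 10 RPM or more in some library (418 of 1046, of which 805 had reads).

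Alternatives were median-of-ratios factors, totals without miR-143 or without the 5 most abundant names, pseudocounts and minimum levels, star names added, and libraries left out. Leaving the library labelled colon out of the medians was chosen after seeing the data. The text names the members, their star names, fixed marker lists, 2 comparison families, and the 5 (sum) or 3 (member) names of highest rho. The members, lists and rules were chosen with earlier results of these data known.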

Additional observations from a re-analysis of the deposited data

How the results depend on the processing

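The rule for tissue enrichment and the specificity threshold called 0 of the 4 members under every alternative run. All 4 members reached 10 RPM in 10 libraries, in 10 to 12 under the other scalings, in 11 at a minimum of 1 RPM and in 2 at 100 RPM. The fold of the highest over the second library, 1.79 for cerebellum over brain, was 2.26 by median of ratios and 2.19 once the 5 most abundant names left the totals. The fold of the highest over the lowest, 146 for cerebellum over the library labelled colon, was 31.2 and 63.4 under those scalings, both over liver. It was 128 over pancreas without the library labelled colon, 72.9 over liver without the libraries labelled colon, ovary and pancreas, and 81.4 for brain over colon without cerebellum.

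Of the 410 names compared, 80 had rho of 0.8 or more with the summed level. This count was 1 by median of ratios, 29 once miR-143 left the totals, 8 once the 5 most abundant names did, 42 at a minimum of 100 RPM, 61 without the library labelled colon and 32 without the libraries labelled colon, ovary and pancreas. The median share of miR-181a, 67.2%, was 65.6% with star names added, 67.1% without the library labelled colon and 66.3% without those 3 libraries. In the library labelled colon, the log2 difference of miR-181a from the other libraries (−3.93) turned to 0.60 with median-of-ratios factors, 0.79 without miR-143 and 0.77 without the 5 most abundant names. That of miR-181b (−3.62) turned to 0.83, 1.26 and 1.05, and that of miR-181d (−4.31) to 0.38 and 0.29 under the last 2. In ovary, miR-181a (−2.84) turned to 0.46 with median-of-ratios factors. Read counts were the same under every scaling, and only the divisors of the libraries changed. Why the libraries labelled colon and ovary held so many miR-143 reads was not tested. Of 56 log2 differences of single members from the other libraries, 38, 42 and 40 kept their sign under the 3 scalings. With a pseudocount of 10 RPM 56 did. Without the library labelled colon, an alternative chosen after seeing the data, 49 of 52 did. No paired analysis was possible because each tissue has 1 library. Depth limits the member values in pancreas, with 22 family reads, and in ovary, with 128.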

Other observations

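The share of star reads differed between members and tissues. Over all libraries, star names made up 5.48% (4.75–6.28%) of the reads of the miR-181c hairpin, 2.67% (2.52–2.83%) for miR-181a, 1.42% (1.19–1.68%) for miR-181b and 0.100% (0.0457–0.190%) for miR-181d. For miR-181a the star share was highest in heart, at 10.1% (8.53–11.8%), where 114 of the 135 star reads were miR-181a-2*. Brain followed with 4.75% (4.28–5.26%), and lung had 2.26% (1.85–2.74%). These shares do not depend on the scaling of the libraries.

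The star strands of miR-181b were scarce. miR-181b-1*, from the chromosome 1 locus, had 121 reads in all and at least 1 read in each of 14 libraries, and miR-181b-2*, from the chromosome 2 locus, had 11 reads in 7 libraries. In heart, where miR-181a-2* led among the star reads of miR-181a, miR-181b-1* and miR-181b-2* had 2 reads each. miR-181d* had 9 reads, 8 of them in brain.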
